A study of Mus musculus with 4 samples.

Results

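The interferon-stimulated genes are genes whose transcription is turned on when a cell senses interferon or viral nucleic acid. A fixed set of 46 such genes was found by gene name in the deposited tables, out of 20194 genes listed there. The rule uses gene names and no measured value. The list itself was chosen with earlier results of these data known. All 46 were listed at embryonic day 18 (E18) and 44 at embryonic day 15 (E15), where Mx1 and Oas1a had no values. They were read in RNA sequencing of brain endothelial cells, the cells that line the vessels of the brain, from C57BL/6 mouse embryos.

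The study had 4 groups: wild-type (WT) embryos at E15, UCP2f/f;Tie2-cre embryos at E15, WT embryos at E18 and UCP2f/f;Tie2-cre embryos at E18. The second genotype, called the knockout below, carries floxed Ucp2, the gene of a carrier in the inner mitochondrial membrane, and Cre recombinase driven by Tie2, which is active in endothelial and most blood cells. Whether the WT embryos carried Cre or a floxed allele, how the cells were isolated and how many embryos entered a library are not given in the sources used here. Each group held 1 library, although the series' design speaks of triplicates, so a ratio compares a pair of libraries with no replicate check and its interval covers counting error only.

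Type I interferons bind a receptor made of Ifnar1 and Ifnar2, whose kinases Jak1 and Tyk2 phosphorylate Stat2 among others. Stat2 and Irf9 are parts of a complex that binds the interferon-stimulated response element in front of its target genes, while type II interferon acts at the gamma-activated site. Endothelial cells carry these receptors, and many target genes are also transcribed at a low level without infection.

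Library totals ran from 15542930 to 21992660 reads in genes. Ucp2 itself had 4285 reads in the WT and 2666 in the knockout library at E15, and 6696 and 3296 at E18. As CPM (the reads of a gene scaled to the library total), Ucp2 was at 276 and 163 at E15 and at 351 and 150 at E18. The knockout libraries thus kept Ucp2 reads, within 2-fold of WT at E15 and more than 2-fold lower at E18. All 10 endothelial markers were detected in every library, among them Cldn5, a tight junction protein, at 6151 to 8064 CPM. Sex transcripts differed between libraries: Xist had 2549 and 2109 reads in WT and the knockout at E15 and 0 and 547 at E18, and the Y-linked Ddx3y, without values at E15, had 5826 and 0 at E18. Sex cannot be told apart from genotype at E18, nor from stage in WT. No member lies on the X or Y chromosome. In these bulk libraries, fewer cells with a transcript and less transcript per cell cannot be told apart.

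The promoters are shown because they carry what many members share in sequence. RefSeq (GRCm38.p6) windows from 250 bases before to 50 after the transcription start were at hand for 35 of the 46 members. The core of the response element, GAAA, any 2 bases and GAAA again on either strand, was found in 18 of these 35 (51.4%) and in 3.99% of all 27025 genes with a window. The gamma-activated site TTCNNNGAA, also on either strand, was found in 9 of 35 (25.7%) and in 9.55% of these genes. Matches to the 2 motifs can overlap, as in Bst2. Below are the 200 bases before the start, read 5′ to 3′ on the strand of the gene, with matches to either motif in capitals. TTTC, any 2 bases and TTTC is the response element core read on the other strand. The windows are Ifit1 (chr19:34640689-34640888, plus strand), Ifit3 (chr19:34583329-34583528, plus), Ifit3b (chr19:34607757-34607956, plus), Rsad2 (chr12:26456453-26456652, minus), Isg15 (chr4:156200819-156201018, minus), Bst2 (chr8:71537473-71537672, minus), Igtp (chr11:58199356-58199555, plus) and Irgm2 (chr11:58214777-58214976, plus).
Ifit1: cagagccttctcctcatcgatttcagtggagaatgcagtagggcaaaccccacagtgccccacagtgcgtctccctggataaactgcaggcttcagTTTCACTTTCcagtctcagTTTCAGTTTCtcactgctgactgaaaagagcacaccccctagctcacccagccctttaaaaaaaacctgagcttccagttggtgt
Ifit3: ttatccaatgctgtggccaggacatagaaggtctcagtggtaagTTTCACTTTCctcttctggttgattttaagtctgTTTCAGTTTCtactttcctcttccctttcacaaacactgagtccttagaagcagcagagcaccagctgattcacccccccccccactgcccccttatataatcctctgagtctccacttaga
Ifit3b: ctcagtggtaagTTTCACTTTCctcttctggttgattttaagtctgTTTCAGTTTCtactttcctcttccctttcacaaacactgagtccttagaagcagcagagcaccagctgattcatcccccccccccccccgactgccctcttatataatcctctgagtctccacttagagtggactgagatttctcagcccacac
Rsad2: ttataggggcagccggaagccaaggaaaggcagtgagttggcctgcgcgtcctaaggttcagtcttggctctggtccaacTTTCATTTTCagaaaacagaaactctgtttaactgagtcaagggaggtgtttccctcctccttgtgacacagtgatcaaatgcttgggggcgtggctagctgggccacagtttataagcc
Isg15: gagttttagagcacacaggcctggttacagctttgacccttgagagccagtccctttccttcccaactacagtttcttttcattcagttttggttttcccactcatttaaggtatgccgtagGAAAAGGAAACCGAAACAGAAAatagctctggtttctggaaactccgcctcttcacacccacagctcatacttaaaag
Bst2: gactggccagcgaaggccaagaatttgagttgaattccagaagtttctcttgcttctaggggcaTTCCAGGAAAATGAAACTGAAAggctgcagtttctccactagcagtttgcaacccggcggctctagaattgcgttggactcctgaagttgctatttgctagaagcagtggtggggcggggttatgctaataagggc
Igtp: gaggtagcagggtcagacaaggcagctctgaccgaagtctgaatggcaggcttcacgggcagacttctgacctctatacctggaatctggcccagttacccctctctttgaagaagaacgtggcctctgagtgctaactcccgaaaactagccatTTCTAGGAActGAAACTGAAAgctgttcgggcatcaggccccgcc
Irgm2: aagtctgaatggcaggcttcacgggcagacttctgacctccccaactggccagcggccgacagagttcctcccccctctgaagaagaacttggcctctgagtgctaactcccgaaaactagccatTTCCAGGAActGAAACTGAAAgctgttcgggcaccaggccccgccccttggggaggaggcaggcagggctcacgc
Isg15 held 3 response element cores that overlap in 1 run, and Ifit1, Ifit3 and Ifit3b held 2 each. The windows of Ifit3 and Ifit3b were identical in 258 of 260 aligned bases (99.2%) and those of Igtp and Irgm2 in 244 of 265 (92.1%). A match is a description of the letters, not a bound site.

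The members lie on 16 chromosomes. Of the 46, 20 form 8 runs in which neighbours are at most 150 kb apart, in coordinates as the tables give them, read as GRCm38. Ifit2, Ifit3, Ifit3b and Ifit1 stand in a row on chromosome 19 (34550694 to 34650009). Rsad2 and Cmpk2 are neighbours on chromosome 12 (26442746 to 26479837), Gbp7, Gbp3 and Gbp2 on chromosome 3 (142530342 to 142638008), and Parp14, Dtx3l and Parp9 on chromosome 16 (35832874 to 35972605).

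Interferon-stimulated transcripts were highest in the WT library at E18. Summed over the members, the level was 1337 CPM in WT and 1432 CPM in the knockout at E15, and 3138 CPM in WT and 2424 CPM in the knockout at E18. These sums are 0.134%, 0.143%, 0.314% and 0.242% of the reads. Both E18 libraries thus stood above both E15 libraries, and the knockout stood below WT only at E18. Among the 43 members with at least 1 CPM in a library and 50 reads over all 4, the WT E18 library was the highest in 37 (86.0%), against 17.8% of 13844 genes read alike. WT at E15 was the lowest in 26 (60.5%), against 17.6% of genes. In 36 members (83.7%) both E18 libraries were above both E15 libraries, against 17% of genes.

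Per kilobase of exon, the most abundant members were Ifitm3, which blocks virus entry, at a mean of 138 CPM per kb over the 4 libraries, and Bst2, which tethers virus particles to the cell surface, at 126 CPM per kb. Ifi35 (37.8 CPM per kb), Rtp4 (36.8), Gbp3 (33.2), Samd9l (31.6) and Irf9 (31.0) followed. Mx1, Oas2 and Zbp1 were at the bottom with 0.035, 0.12 and 0.18 CPM per kb. The list therefore spans well covered genes and genes with few reads, and the latter carry wide intervals.

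At E18 the question is whether the deletion of Ucp2 goes with another level of these transcripts. Most interferon-stimulated transcripts were lower in the knockout library than in the WT library. A gene counted as measured at 1 CPM or more in either library and 50 reads over the pair, and its ratio is log2 of (CPM + 1), which understates the differences of weak genes. Of 42 members measured, 38 were below 0 and 4 above, with a median log2 ratio of -0.41, while 49.7% of 12349 genes were below 0. At a 2-fold difference 8 members were lower and none higher, against 3.92% of genes lower and 2.88% higher. Without the filter 40 of 46 members were below 0, 8 were lower and 0 higher. Among all 17344 genes read without the filter, 876 were lower and 567 higher, with a median of -0.03.

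Among the antiviral effectors, 12 of 13 measured were below 0, with a median log2 ratio of -0.63, and 4 were 2-fold lower. Mx2, a dynamin-like antiviral GTPase, had 53 reads in WT and 64 in the knockout at E15, and 305 and 82 at E18 (3.73 CPM in the knockout). Its E18 log2 ratio was -1.85, with an interval of -2.47 to -1.74 for scaled counts with no pseudocount, so an interval can lie beyond the ratio of a weak gene. The knockout at E18 was thus near the E15 level and WT alone stood high.

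The Ifit genes encode tetratricopeptide proteins that bind foreign RNA. Ifit1 had 36, 45, 506 and 266 reads in WT E15, knockout E15, WT E18 and knockout E18, an order kept in all lists of 4 values below (2.32, 2.76, 26.5 and 12.1 CPM). Its E18 log2 ratio was -1.07 (interval -1.35 to -0.92). Ifit2 had 141, 145, 563 and 301 reads and an E18 ratio of -1.06 (interval -1.32 to -0.90). Both genes were alike in the E15 libraries and separated at E18.

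Ifit3 had 4, 37, 109 and 39 reads (0.257, 2.27, 5.71 and 1.77 CPM) and an E18 log2 ratio of -1.28 (interval -2.25 to -1.15). Ifit3b, its near copy, had 3, 9, 11 and 28 reads and did not pass the filter. Of the 50-base words of Ifit3, 51.2% are also in Ifit3b, so reads may be split between the copies and both are uncertain. Their summed reads were 7, 46, 120 and 67, for an E18 log2 ratio of -0.85. The sum kept the direction of Ifit3 with a smaller size.

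Rsad2 encodes viperin, an enzyme that makes a chain-terminating nucleotide, and Cmpk2, its neighbour, a mitochondrial nucleotide kinase. Rsad2 had 82, 219, 1267 and 923 reads (5.28, 13.4, 66.4 and 42.0 CPM), and its E18 log2 ratio was -0.65 (interval -0.79 to -0.54). Cmpk2 had 216, 178, 858 and 630 reads and a ratio of -0.63 (interval -0.80 to -0.50). The neighbours had like ratios at E18 and opposite ones at E15, where Rsad2 was at 1.20 and Cmpk2 at -0.32.

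The remaining antiviral effectors spanned a range at E18. Oasl1 (-0.64), Samd9l (-0.47), Ifitm3 (-0.33), Oasl2 (-0.20), Bst2 (-0.15) and the RNA-activated kinase gene Eif2ak2 (-0.12) all had log2 ratios below 0, though the interval of Eif2ak2 (-0.28 to 0.04) includes 0. Oas1a, an oligoadenylate synthetase, had 26 and 42 reads and a ratio of 0.30, whose interval of -0.25 to 1.25 includes 0. Mx1 had 5 and 0 reads. Oas2 had 25 reads in WT and 0 in the knockout at E15, and 11 and 0 at E18. With a floor of 3 reads in place of 0, that is 8.75-fold lower at E15 and 4.23-fold lower at E18. The counting intervals reached up to log2 -2.72 at E15 and -1.53 at E18.

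Genes of ubiquitin-like tagging and ADP-ribosylation had a median of -0.34 over 7 members, 6 of them below 0. Herc6, the ligase that attaches Isg15 to proteins in mice, had 143, 106, 333 and 87 reads (9.20, 6.49, 17.5 and 3.96 CPM) and a log2 ratio of -1.90 at E18 (interval -2.50 to -1.80). Parp14, an ADP-ribosyltransferase, had 147, 188, 1005 and 456 reads and a ratio of -1.30 (interval -1.51 to -1.18). Both were 2-fold lower, and Herc6 was also below 0 at E15 (-0.45, interval -0.88 to -0.13).

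Isg15 itself, the ubiquitin-like tag, had 11, 14, 81 and 52 reads and an E18 log2 ratio of -0.64 (interval -1.38 to -0.32). Usp18, which removes the tag and also damps the receptor, had 109, 123, 648 and 641 reads and a ratio of -0.21 (interval -0.38 to -0.06). The partners Dtx3l and Parp9, which start head to head, parted at E18: Dtx3l was at -0.34 and Parp9 at 0.29 (interval 0.17 to 0.41). Their annotated starts overlap by 682 bases on opposite strands, and the sources used here do not say whether reads were counted by strand. Trim25, a ligase acting on the sensor RIG-I, was at -0.13.

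All 4 genes of transcription and nuclear bodies were below 0 at E18, with a median of -0.75. Sp100, a nuclear body protein, had 99, 125, 836 and 486 reads and a log2 ratio of -0.96 (interval -1.15 to -0.82). Irf7, the factor that amplifies interferon production, had 77, 89, 369 and 234 reads and a ratio of -0.81 (interval -1.10 to -0.62). Stat2 had 752, 999, 1771 and 1262 reads and a ratio of -0.68 (interval -0.80 to -0.59). Irf9, its partner in the complex, was the most abundant of the group, with a smaller ratio of -0.29 (interval -0.35 to -0.23). None of the 4 reached 2-fold.

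The sensors of foreign RNA in the cytoplasm differed little at E18. Ddx58, which encodes RIG-I, had 1448, 1329, 3029 and 2790 reads and a log2 ratio of -0.32. Ifih1, which encodes MDA5, was at -0.19, and Dhx58, a regulator of both, at -0.28 with an interval of -0.72 to 0.06. Zbp1, a sensor of Z-form nucleic acid, had 5, 7, 6 and 34 reads and did not pass the filter.

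Of the 8 interferon-inducible GTPases, which attack vacuoles that hold microbes, 7 were below 0 at E18, with a median of -0.38. Iigp1 had 32, 66, 60 and 0 reads (2.06, 4.04, 3.15 and 0 CPM). With a floor of 3 reads in place of 0, the knockout at E18 was 23.1-fold lower than WT, and the counting interval reached up to log2 -4.18. Igtp (-0.56), Gbp3 (-0.51), Gbp7 (-0.41), Irgm1 (-0.35), Irgm2 (-0.20), Ifi47 (-0.12) and Gbp2 (0.07) lay within 2-fold. Igtp and Irgm2 overlap by 7974 bases on the same strand, so their reads may be shared. Summed, they had 895, 876, 1697 and 1448 reads and an E18 ratio of -0.43.

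Among the other members, Tnfsf10, which encodes the death ligand TRAIL, had 38, 10, 480 and 253 reads (2.44, 0.612, 25.2 and 11.5 CPM) and a log2 ratio of -1.07 at E18 (interval -1.35 to -0.91). Rtp4, a chaperone of receptor transport, had 420, 567, 3028 and 2057 reads and a ratio of -0.76 (interval -0.84 to -0.68). Lgals3bp (-0.81), Xaf1 (-0.41), Ifi44 (-0.28) and Ifi27 (-0.09) were also below 0. Ifi35 went the other way, with 639, 814, 1417 and 2102 reads, a ratio of 0.36 (interval 0.27 to 0.46) and its highest level in the knockout at E18.

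At E15 the members differed in both directions between the genotypes. Of 37 members measured, 23 had a log2 ratio above 0 and 14 below, with a median of 0.15, while 50.6% of 12633 genes were below 0. Rsad2 was 2-fold higher in the knockout (log2 ratio 1.20, interval 0.97 to 1.73) and no member was 2-fold lower, against 3.55% of genes higher and 3.32% lower. A share of 1 in 37 is near that background. Iigp1 (0.72), Eif2ak2 (0.61, interval 0.41 to 0.87) and Gbp2 (0.58, interval 0.35 to 0.87) followed, and Oasl2 was the lowest with 691 and 459 reads (-0.64, interval -0.83 to -0.49).

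The role groups had E15 medians between -0.07 for the sensors (2 measured) and 0.29 for the other members (6 measured). The 7 members listed at E15 but below the filter were Ifit3, Ifit3b, Oas2, Isg15, Dhx58, Zbp1 and Tnfsf10. Dhx58 had 9 and 38 reads there and Tnfsf10 38 and 10. Among the 37 members measured at both stages, which come from separate libraries, 21 were above 0 at E15 and below 0 at E18 (56.8%, against 23.9% of 11784 genes), 13 were below 0 at both, 2 above 0 at both and 1 the reverse. The E15 and E18 ratios of the members were close to unrelated (Spearman correlation -0.05, against 0.04 over all genes). The count of 21 thus mirrors the shares above and below 0 at each stage, and is no separate result.

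**Figure D1:**
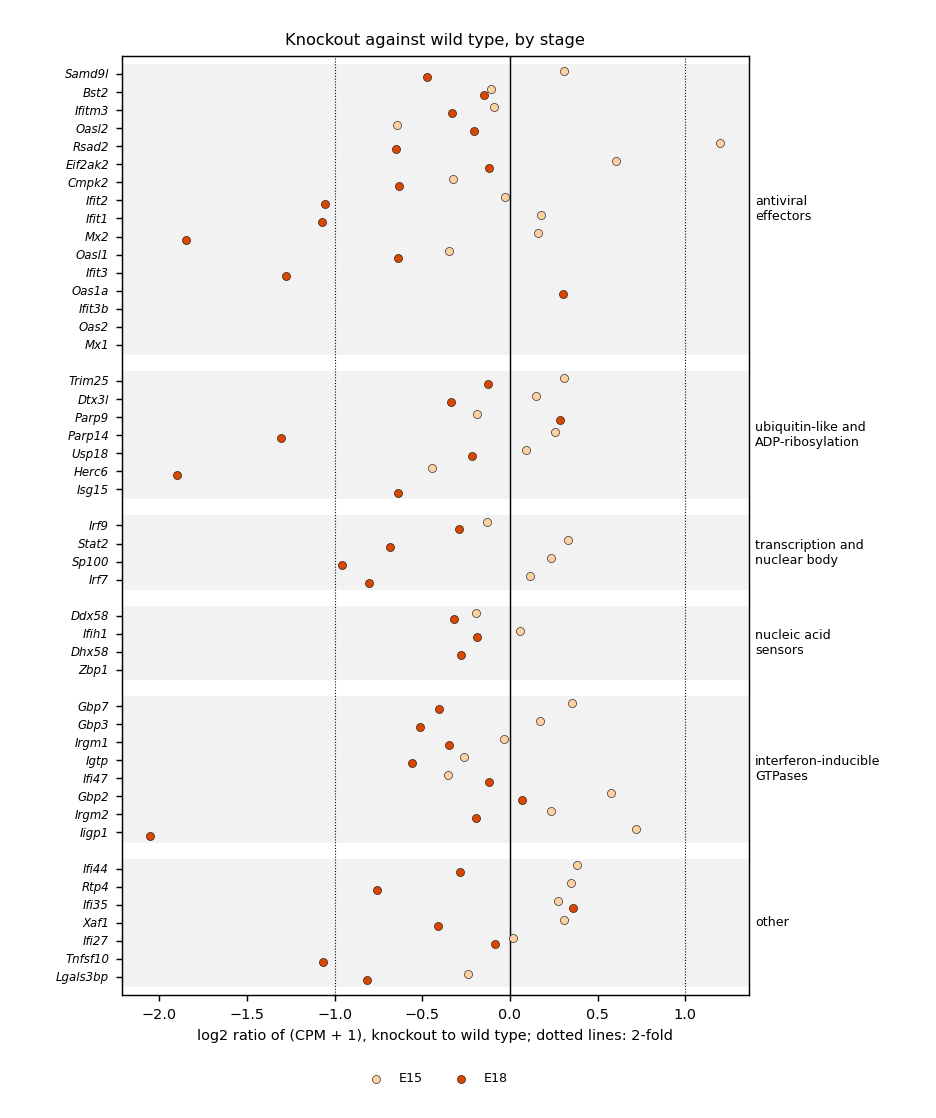
Log2 ratio of (CPM + 1), knockout to WT, for each member measured at E15 and E18, with dotted lines at 2-fold. At E18, 38 of 42 points lie left of 0 and 8 are past 2-fold, while at E15 23 of 37 lie right of 0.

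Other transcripts also differed between the E18 libraries. Immediate early and stress genes, which respond within minutes to handling of cells, had a median log2 ratio of -0.80 over 11 genes, with 10 below 0, and summed to 22943 CPM in WT and 14399 CPM in the knockout; at E15 they summed to 12892 and 12234 CPM. Fos had 6888 and 3620 CPM at E18. White blood cell markers mostly went the other way at E18. Of 10 microglia and macrophage genes measured, 9 were above 0 and Csf1r was below (-0.31). The 13 microglia and macrophage genes summed to 700, 321, 85.1 and 160 CPM in the 4 libraries, with Tmem119 at 0 in WT at E18 and Trem2 without values there. Lyz2 alone made up 45.1 CPM of the WT sum and 84.7 CPM of the knockout sum at E18. The 4 general white blood cell genes summed to 320, 251, 175 and 222 CPM. Laptm5 alone made up 231, 203, 159 and 190 CPM of these sums. Coro1a was at 70.5, 40.7, 12.2 and 26.9 CPM and Ptprc at 18.4, 7.23, 3.72 and 4.82 CPM. The 7 neutrophil and mast cell genes summed to 2.90, 19.6, 9.33 and 52.1 CPM, with Cpa3 and Cma1 at 0 in WT at E18 and Camp, S100a8 and Cma1 at 0 in WT at E15. The 8 mural cell genes summed to 7329, 4888, 9348 and 11672 CPM, and the 10 endothelial genes to 14908, 17530, 16727 and 17427 CPM. At E15, 8 of the 10 endothelial genes were below 0 (median -0.05). The 2 above 0 were Flt1 (1328 CPM in WT and 2939 in the knockout) and Cldn5 (6151 and 7583 CPM). The 6 radial glia and astrocyte genes summed to 19.8, 17.9, 77.2 and 49.0 CPM, with 4 of 5 measured below 0 at E18 (median -0.68) and Sox2, Gfap and Aqp4 each without values at a stage. The 7 erythroid genes summed to 398, 509, 902 and 699 CPM, with 5 of 6 measured below 0 at E18 (median -0.55). Both lists, like the immediate early genes and the members, were highest in WT at E18. The part of these differences in the ratios of the interferon-stimulated genes was not tested.

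The comparison of stages asks how the transcripts differ between E15 and E18, a span in which the embryonic brain shifts from neuron to astrocyte production. Interferon-stimulated transcripts were higher at E18 in WT without exception among those measured. Scaling to library totals put the median of all genes at -0.11 in WT and -0.10 in the knockout, and the values here are not corrected for it. In WT all 41 members measured had a log2 ratio above 0, with a median of 1.20, while 39.1% of 12515 genes were above 0. At 2-fold 25 were higher and none lower, against 3.08% of genes higher and 7.58% lower. The WT libraries also differ in sex transcripts, with 2549 Xist reads at E15 and 0 at E18. Without the filter 42 of 44 were above 0, and Oas2 (25 and 11 reads) and Zbp1 (5 and 6 reads) were below. The median of the 16119 genes read without the filter was -0.11.

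In WT the highest stage ratios were those of Rsad2 (log2 3.43, interval 3.33 to 3.99), Ifit1 (3.05), Tnfsf10 (2.93), Ifi44 (2.67), Sp100 (2.60) and Rtp4 (2.51). Ifi44, an interferon-induced cytoplasmic protein, had 455, 627, 3649 and 3451 reads (29.3, 38.4, 191 and 157 CPM). The antiviral effectors had a WT median of 1.61 with 9 of 12 at 2-fold or more, and the ubiquitin-like group 0.86 with 3 of 7. The smallest WT stage ratio was that of Parp9, at 0.22 (interval 0.09 to 0.37). Marker lists differed between the WT stages too. The median log2 ratio was 1.81 for radial glia and astrocyte genes (3 of 3 measured 2-fold higher), 0.82 for erythroid genes (3 of 6 higher, 1 lower), 0.63 for immediate early and stress genes (3 of 11 higher, 2 lower) and -3.55 for microglia and macrophage genes (8 of 10 lower). In the knockout these medians were 1.21, -0.14, 0.29 and -1.89, and that of mural genes was 1.07 (5 of 8 higher). Their part in the stage ratios of the members was not tested.

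In the knockout 36 of 41 members measured were above 0 between the stages, with a median of 0.84, while 42.1% of 12465 genes were above 0. At 2-fold 13 were higher and 1 lower, against 4.34% of genes higher and 10.9% lower. Tnfsf10 (2.96, interval 3.33 to 5.31), Ifi44 (2.00), Oasl1 (1.84), Usp18 (1.82) and Ifit1 (1.80) were the highest. Iigp1 was 29.6-fold lower at E18 with a floor of 3 reads in place of 0, and its counting interval reached up to log2 -4.55. The other members below 0 were Herc6 (-0.60), Ifit3 (-0.24), Stat2 (-0.09) and Mx2 (-0.06), of which Stat2 and Mx2 turn above 0 when the ratios are centred on all genes. The WT comparison shares the WT E18 library with the E18 genotype comparison, and the knockout comparison shares the knockout E18 library, so these sets of ratios are not independent of each other.

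**Figure D2:**
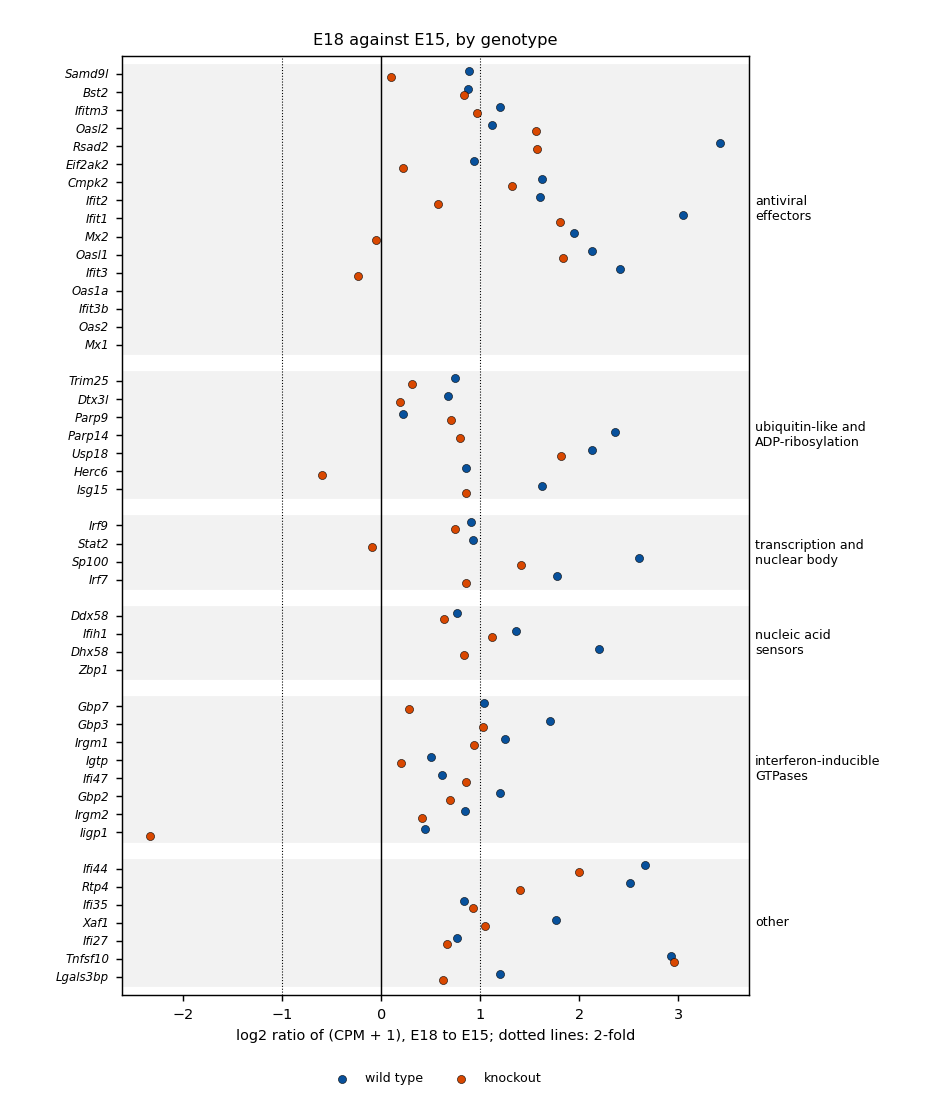
Log2 ratio of (CPM + 1), E18 to E15, for each member measured in WT and in the knockout, with dotted lines at 2-fold. All 41 WT points lie right of 0, and 25 of them are past 2-fold, as are 13 of 41 on the right in the knockout.

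**Figure D3:**
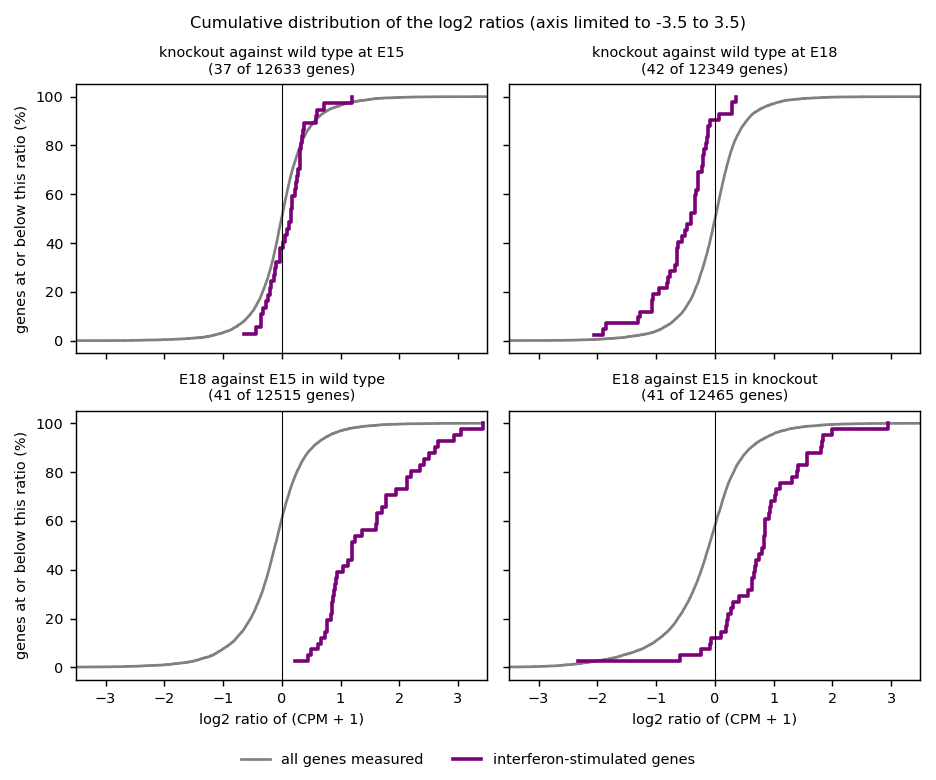
Share of genes at or below each log2 ratio of (CPM + 1) in the 4 comparisons, for the members and for all genes measured. The members' curve lies left of all genes for knockout against WT at E18 (medians -0.41 and 0.00) and right of them in both stage comparisons.

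A fit to the 4 libraries, with a term for stage and a term for genotype, gave the test that the design allows. The difference of the genotype effects between stages is what the fit leaves over, with 1 residual degree of freedom. edgeR combines it with an error trend shared over all genes tested, so the p-values depend on that shared trend as well. The fit does not measure the spread between embryos. For stage, 8 of 41 members tested rose and none fell (edgeR quasi-likelihood F test, Benjamini-Hochberg adjusted p under 0.05), against 0.395% of 13416 genes that rose and 0.365% that fell. Ifi44 rose by 2.37 on the log2 scale (SE 0.213, edgeR adjusted p = 0.0204), Tnfsf10 by 3.73 (SE 0.436, edgeR adjusted p = 0.0318) and Usp18 by 2.11 (SE 0.270, edgeR adjusted p = 0.0342). Ifih1 (1.25), Oasl2 (1.37), Rtp4 (1.99), Gbp3 (1.38) and Ifitm3 (1.10) rose with adjusted p of 0.0391 to 0.0496. Without the filter on low counts 2 members rose, with TMM factors 17 and with DESeq2 21. Over these settings Ifi44 and Tnfsf10 kept an adjusted p of at most 0.0391 and 0.0497, while the highest adjusted p of the other 6 genes was 0.0605 to 0.0753. The E18 libraries were above the E15 libraries in both genotypes for these 8 genes.

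For genotype over both stages, 0 of 41 members rose or fell in the same edgeR fit, in which 0% of 13416 genes passed. At an unadjusted p under 0.05, 0 members rose and 2 fell, Tnfsf10 and Herc6, against 342 and 330 of 13416 genes. Tnfsf10 had the lowest adjusted p of the members (log2 -1.46, SE 0.410, edgeR adjusted p = 0.895). DESeq2 and edgeR with TMM factors also gave 0 members. A member whose genotype ratios differ between the stages adds to the error of this fit.

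The other genes of the interferon pathway had medians near 0 in all 4 comparisons. Of 12 ligand genes, Ifnk alone had values, with 1 and 6 reads at E15. The 5 receptor genes with values, Ifnar1, Ifnar2, Ifngr1, Ifngr2 and Il10rb, summed to 883, 894, 1018 and 974 CPM, and none differed by 2-fold in any comparison. Ifnar1 had 3654, 4447, 5966 and 6126 reads and an E18 genotype log2 ratio of -0.17, and Ifnar2 had 2287, 2080, 3278 and 2876 reads and a ratio of -0.39. Over the whole list of 50 names, covering ligands, receptors, kinases, brakes, sensing adaptors and nucleic acid clearance, with some genes under an older and a newer name, the median genotype ratio was -0.07 at E15 (33 measured) and 0.03 at E18 (32 measured), and the stage median was -0.02 in WT (31 measured) and -0.07 in the knockout (32 measured).

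Ikbke, a kinase upstream of interferon production, was 2-fold higher in the knockout at E15 with 20 and 60 reads (1.03). Tlr7, a receptor of single-stranded RNA in endosomes, had 44 and 10 reads at E15 (-1.25). Ptpn6, a phosphatase found mainly in blood cells, had 244, 129, 38 and 153 reads and was 2-fold higher in the knockout at E18 (1.41). Socs3, a feedback inhibitor of Jak kinases, had 2373, 1278, 4909 and 4408 reads and was at -0.96 at E15 and -0.36 at E18.

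A further 61 interferon-stimulated genes were chosen for this work as a list beside the members, with earlier results of these data known. They also lay mostly below 0 at E18. Values were listed for 55 of them. At E18, 29 of 37 measured were below 0 with a median log2 ratio of -0.21, against 49.7% of all genes below 0. Oas1b (180 and 59 reads, -1.50), Ddx60 (204 and 81 reads, -1.32) and Sp140 (118 and 42 reads, -1.30) were 2-fold lower, 3 of 37 against 3.92% of genes. Nlrc5, the activator of MHC class I genes, had 0, 6, 0 and 50 reads and was 2-fold higher, 1 of 37 against 2.88% of genes. At E15 the median was -0.03 over 38 measured, with Parp12 (51 and 183 reads, 1.51) and Gbp4 (45 and 136 reads, 1.26) 2-fold higher and Phf11d (-1.27) and Trim34a (-1.01) lower. These 2 of 38 in each direction are near the 3.55% and 3.32% of all genes. Between the stages 32 of 37 were above 0 in WT (median 0.65, against 39.1% of genes above 0) and 26 of 38 in the knockout (median 0.31, against 42.1%). The additive edgeR fit gave 2 that rose with stage, Ly6e and Slfn5, each with an adjusted p of 0.0335, of 40 tested and against 0.395% of genes.

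**Figure D4:**
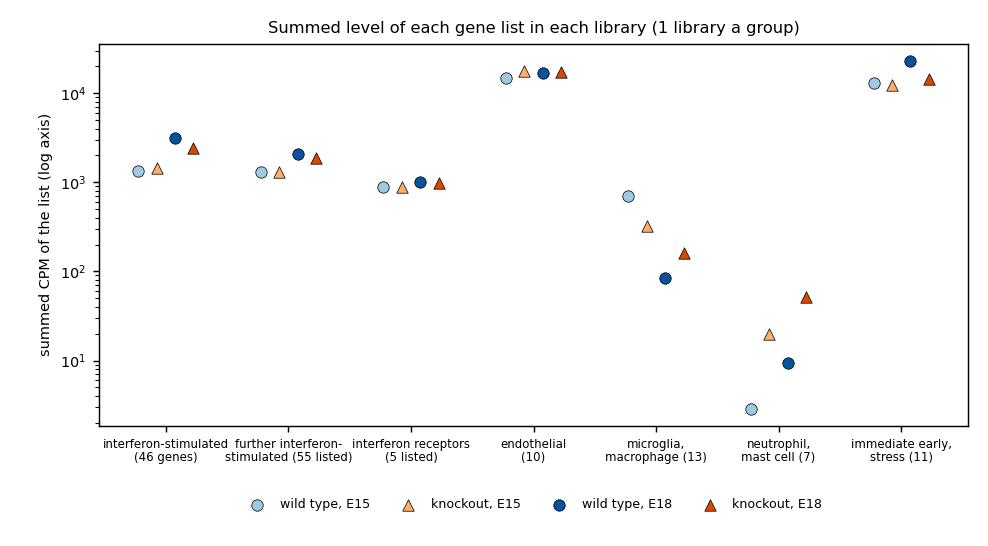
Summed CPM of the members, further interferon-stimulated genes, interferon receptors and cell marker lists on a log axis, 1 point a library. The members sum to 1337 and 1432 CPM at E15 and to 3138 and 2424 CPM at E18, the receptors lie between 883 and 1018 CPM, and the microglia genes are at 700 and 321 CPM and then at 85.1 and 160 CPM.

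Members with and without a response element core in the RefSeq window are set side by side here. At E18 the median genotype log2 ratio was -0.35 for the 17 measured members with the core and -0.47 for the 17 measured without, and in WT the median stage ratio was 1.20 in both groups. The 11 members with no window could not be placed in either group. Their medians were -0.52 for genotype at E18 and 2.04 for stage in WT, with 8 measured in each. Of the genes 2-fold lower at E18, Ifit1 and Ifit3 held the core within the bases shown above, while Ifit2, Tnfsf10 and Herc6 did not hold it in their windows, and no window was used for Iigp1, Mx2 and Parp14. The absence of a match says only that these letters are not in the window.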

How the data were processed

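Members and gene lists were chosen with earlier results of these data known. Named genes were members past 2-fold, the most abundant and most different member of each role group, detected pathway genes and a few markers; remaining members are given briefly. RNA was extracted with Trizol, per the labels' protocols. Per the file headers, the authors deposited raw read counts per gene, 1 table a stage, which were used here. The authors also deposited CPM scaled to library totals, the knockout to WT fold (ratio), its log2 value and p-values, per the file headers, and these were not used. TopHat2 2.0.12, Bowtie2 2.2.3, HTSeq 0.6.0 and the build mm9 are named in the submitters' processing notes. Their roles and the use of strand are not given in the sources used here. Start and end of 45 of 46 members equal GENCODE M21 (GRCm38), so coordinates are read as GRCm38. 

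Counts were scaled to library totals over all listed genes as CPM. Ratios are log2 of (CPM + 1), called at 2-fold, for genes at 1 CPM or more in either library and 50 reads over the pair; stage comparisons use the 16181 genes in both tables. Their 95% intervals are exact (Clopper-Pearson), for scaled counts with no pseudocount, and cover counting error only. No molecular identifiers are named in the sources used here. The additive test was edgeR 4.0.16 (glmQLFit, glmQLFTest, R 4.3.3), with stage and genotype as terms, library totals and genes with 1 CPM in at least 2 libraries. DESeq2 1.42.0 and TMM factors were alternatives. The scripts were tested on simulated data. Alternatives were other scalings, pseudocounts, filters and folds. Promoter motifs were searched in RefSeq windows. No protein sequence was used. Not every gene of the pathway list is reported here.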

Additional observations from a re-analysis of the deposited data

Results flagged for a closer look

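For 4 members the genotype ratio had opposite signs at E15 and E18, with both counting intervals away from 0 and a difference of over 1 on the log2 scale. The difference was not tested, since each group holds 1 library. The rule was applied to the members only, so the share of all genes that meet it is not known. Opposite signs alone were common: of 11784 genes, 2821 were above 0 at E15 and below at E18, and 2898 the reverse. The E18 minus E15 difference was -1.85 for Rsad2 (1.20 at E15, -0.65 at E18), -2.77 for Iigp1 (0.72 and -2.05), -1.11 for Rtp4 (0.35 and -0.76) and -1.02 for Stat2 (0.33 and -0.68). Iigp1 rests on 32, 66, 60 and 0 reads, so its value depends on the pseudocount, while Rtp4 and Stat2 each had over 400 reads in every library.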

How the results depend on the processing

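The direction of every member's ratio and median was recomputed under other scalings, pseudocounts, filters, folds and a centring by exon length that was chosen after seeing the data. No call reversed. Of the single-member results, 1078 kept their side of the 2-fold limit, 22 passed it and 11 no longer did. The members' medians stayed within the interval of their order statistics. That interval treats the members as independent, which genes read in the same libraries are not. It is also wide (-0.04 to 0.26 for genotype at E15), so this is a loose check. The counts called moved as follows, and the cause was not tested. Members higher between stages in WT were 25 and ranged from 23 with a pseudocount of 5 CPM to 29 with TMM factors or the exon length centring and 28 with median centring. In the knockout they were 13 and ranged from 11 with a pseudocount of 5 CPM to 16 with each of these 3 scalings. With a pseudocount of 5 CPM, 0 members were higher at E15 instead of 1, 3 lower at E18 instead of 8, and 0 lower between stages in the knockout instead of 1. Without a filter, 3 were higher and 2 lower at E15. With a filter of 5 CPM, 0 were lower between stages in the knockout. With a call at 1.5-fold, 3 were higher and 1 lower at E15, 17 lower at E18, 38 higher between stages in WT, and 28 higher and 2 lower in the knockout. The count of members that rose with stage by edgeR was 8, and it was 17 with TMM factors, 21 with DESeq2 and 2 without a filter (of 44 tested); the cause was not tested. No member passed for genotype under any of these. For all genes, TMM factors changed the WT stage calls from 386 higher and 949 lower to 501 and 760. Over all genes, the pseudocount of 5 CPM gave 163 higher and 75 lower at E15 instead of 448 and 420, 42 and 82 at E18 instead of 356 and 484, 143 and 286 between stages in WT, and 178 and 601 in the knockout instead of 541 and 1363. Without a filter they were 660 and 756 at E15 and 567 and 876 at E18, and with a filter of 5 CPM 318 and 266 at E15 and 211 and 275 at E18. At 1.5-fold the counts of all genes were 1173 and 1202 at E15, 1061 and 1326 at E18, 1063 and 2246 in WT, and 1319 and 2685 in the knockout. For all genes by stage, edgeR gave 53 that rose and 49 that fell, TMM factors 122 and 58, DESeq2 356 and 360, and no filter 19 and 22. For genotype, DESeq2 gave 35 that rose and 9 that fell, TMM factors 3 and 0. No paired analysis was possible because each group holds 1 library, and leaving one out would empty a group and leave the additive fit no residual degree of freedom.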

Other observations

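Neighbouring members did not always have like ratios. On chromosome 16, Parp14 had an E18 genotype log2 ratio of -1.30, Dtx3l -0.34 and Parp9 0.29, although the 3 genes lie within 140 kb. On chromosome 3, Gbp3 (-0.51) and Gbp7 (-0.41) were below 0 and Gbp2 (0.07) was not. Some blood cell genes had reads: Siglech, a marker of plasmacytoid dendritic cells and microglia, had 236 and 89 reads at E15 and no values at E18, and Bst2, both a member and a marker of plasmacytoid dendritic cells, had 1299, 1264, 2940 and 3061 reads. The interferon-induced adenosine deaminase gene Adar had 596, 463, 1218 and 1182 reads, with a stage log2 ratio of 0.72 in WT and 0.90 in the knockout. The depth set the limit for the weakest members: 1 read was worth 0.0643 CPM at E15 and 0.0524 CPM at E18 in WT, and Mx1, Oas1a, Oas2, Ifit3b and Zbp1 stayed under 50 reads in every library.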
